A study of Homo sapiens with 8 samples.

Results

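The genes described here are 43 core regulators of cell division: cyclins, cyclin-dependent kinases (CDKs), CDK inhibitors, the kinases and phosphatases that switch CDKs off and on, the E2F factors and the RB family. They were a list of names matched by symbol to the Ensembl gene IDs of the count files, and all 43 were found among 63677 gene IDs. PC9 is a cell line of human lung adenocarcinoma, and the libraries come from it and from PC9-BrM3, a subline of it used as a model of brain metastasis. Cells of the shHSF1 group were PC9-BrM3 with a lentiviral, doxycycline-inducible Tet-pLKO hairpin against HSF1 (clone 7480), and those of the shNTC group were PC9-BrM3 with a non-target hairpin in the same vector. Both were selected in puromycin for 5 days and given doxycycline at 500 ng/mL for 48 h before RNA was taken. The other 2 groups, PC9-BrM3 and PC9 parental, were untransduced and were cultured for 48 h. Each group had 2 libraries. With a single hairpin for HSF1, effects of HSF1 loss and off-target effects of the hairpin cannot be told apart. The comparisons ask which of these genes differ with HSF1 knockdown within the subline, and which differ between the subline and its parental line.

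A cell enters division when D-type cyclins with CDK4 and CDK6, then E-type cyclins with CDK2, phosphorylate RB1 and its relatives RBL1 and RBL2, which releases E2F factors to transcribe genes for DNA replication. A- and B-type cyclins with CDK1 then drive mitosis, under WEE1 and PKMYT1, which inhibit CDK1, and the CDC25 phosphatases, which undo that inhibition. INK4 inhibitors (CDKN2A to CDKN2D) block CDK4 and CDK6, CIP/KIP inhibitors (CDKN1A to CDKN1C) bind a wider range of cyclin-CDK complexes, and in lung adenocarcinoma the p16-RB1 axis is often disrupted.

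Libraries held 33550140 to 56715336 gene-assigned counts, and 3 counts, the limit that a count of 0 allows, correspond to 0.0529 to 0.0894 CPM for counting error only. CPM are counts scaled to library size, here with TMM factors (trimmed mean of M values), and levels are given for replicate 1 and then replicate 2. No label tells whether the 2 libraries of a group came from separate cultures, and p-values here reflect a spread between libraries that may be technical. The second PC9-BrM3 library stood apart: mitochondrial genes took 17.3% of its counts, against 1.4% to 6.23% in the other 7, and its pair differed far more than the others. File headers name lane 1 for the transduced and lane 7 for the untransduced libraries, so comparisons were made within a lane. Of the lung epithelial markers, EPCAM (359.5 to 568 CPM), KRT7, KRT8, KRT18, KRT19, CDH1 and CEACAM6 were high in all 8 libraries. The lung lineage factor NKX2-1 was at 0 to 0.196 CPM, NAPSA at 0.271 to 0.762 CPM and SFTPB at 0.0257 to 15.6 CPM. All 7 fibroblast markers were under 1 CPM in every library, as were 6 of 7 immune and 6 of 7 neural markers, where LYZ reached 1.2 CPM and MBP ran from 95.7 to 161 CPM.

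HSF1 was 15.6 and 13.5 CPM in shHSF1, against 178 and 184 CPM in shNTC (log2 fold change -3.61 ± 0.08, SE; adjusted p = 2.66e-08, edgeR's quasi-likelihood test with Benjamini-Hochberg adjustment over all genes tested). Of the 42 cell division regulators that could be tested, 12 were higher and 17 lower in shHSF1 than in shNTC at an adjusted p under 0.05, and 13 were not called. Over all 16840 genes tested, 45.7% were called, 22.2% higher and 23.5% lower. Among genes at 10 CPM or more, a level chosen after the results were seen, 57.5% were called, beside 28 of 39 members. With a change of at least 1.5-fold as well, 4 members were higher and 5 lower, 21.4% of those tested, near the 22.1% of all genes (10.4% higher and 11.7% lower). The 12 and the 4 higher members include CDKN1C, which had 18 and 13 counts in shHSF1 and passed the count filter through those libraries. The median log2 fold change of the members was -0.08, against 0.01 for all genes. Values in shHSF1 and shNTC were apart for 33 of 42 members, beside 73.2% of all genes.

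**Figure D1:**
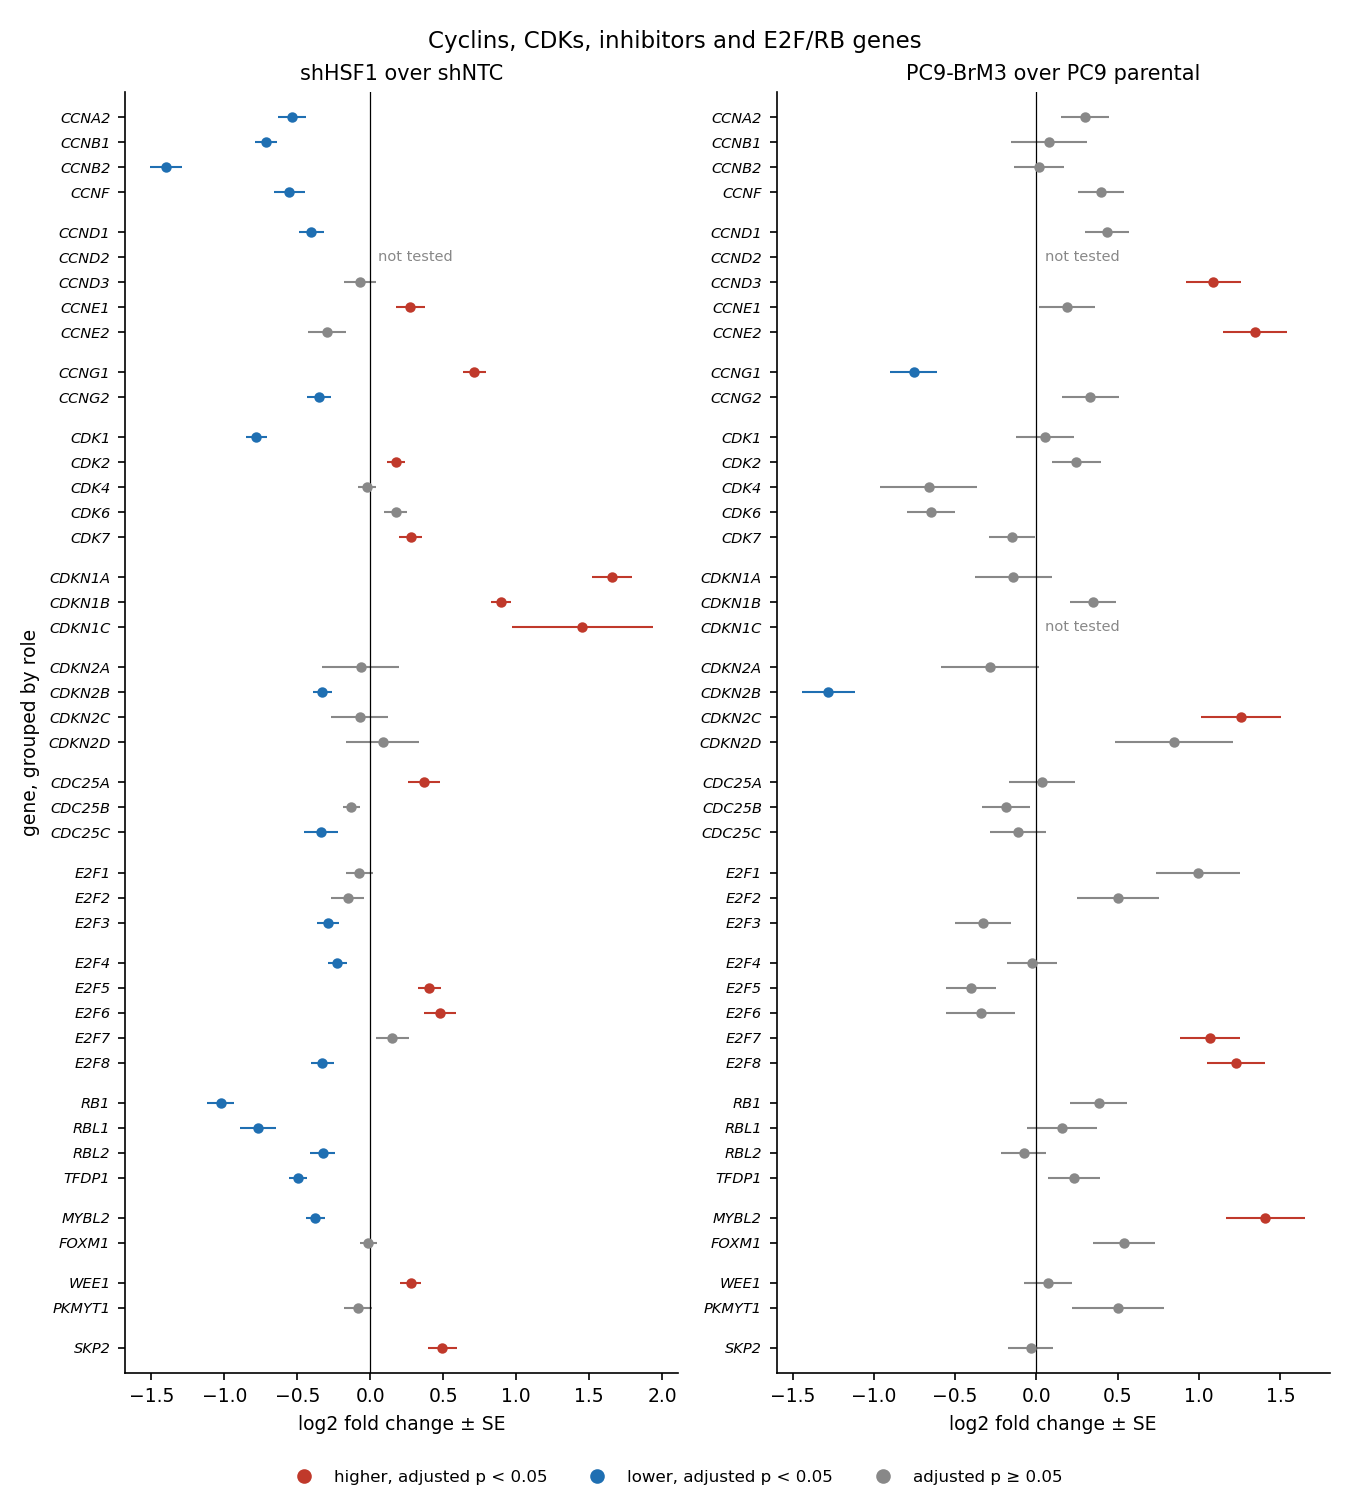
Log2 fold change and its standard error for each tested gene, in shHSF1 over shNTC and in PC9-BrM3 over PC9 parental, with colour marking genes at an adjusted p under 0.05. CDKN1A (1.66) and CCNB2 (-1.40) are the largest changes in shHSF1 among genes above 10 CPM, and MYBL2 (1.41) and CDKN2B (-1.28) the largest in PC9-BrM3.

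The cyclins of late division and their kinase fell with HSF1 knockdown. CCNB2, a B-type cyclin of mitosis (ENSG00000157456, GRCh37 chromosome 15, 59397277 to 59417244, + strand), was 22.1 and 20.0 CPM in shHSF1, against 62.1 and 50.4 CPM in shNTC. Its log2 fold change of -1.40 ± 0.11 (adjusted p = 7.6e-06, edgeR's quasi-likelihood test) was the largest fall among the members. CCNB1, the main B-type cyclin that enters the nucleus with CDK1 (ENSG00000134057, chromosome 5, 68462837 to 68474072, + strand), was 186 and 196 CPM in shHSF1, against 341 and 295 CPM in shNTC (log2 -0.72 ± 0.08). CDK1, the kinase of mitotic entry (ENSG00000170312, chromosome 10, 62538089 to 62554610, + strand), was 143 and 141 CPM in shHSF1, against 263 and 232 CPM in shNTC (log2 -0.78 ± 0.07). In these 3 genes both shHSF1 libraries lay below both shNTC libraries. CCNA2, the cyclin of S phase and early mitosis, was 162 and 159 CPM in shHSF1, against 262 and 211 CPM in shNTC (log2 -0.54 ± 0.10, adjusted p = 0.0017). CCNF, an F-box protein with a cyclin fold that marks proteins for destruction, was 58.9 and 52.8 CPM in shHSF1, against 92.3 and 74.4 CPM in shNTC (log2 -0.56 ± 0.11, adjusted p = 0.00241). So all 4 A-, B- and F-type cyclins fell, and none of their groups overlapped, beside 73.2% of all genes whose groups were apart in either direction.

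Promoters are shown for 5 of the genes that fell, chosen after their motif matches were seen. Windows run from 250 bases before to 50 after a RefSeq start on GRCh38.p14, and 33 of the 43 members have at least 1. Capitals mark the words searched on both strands: TTTGAA, the cell cycle homology region (CHR) bound by the MuvB complex, and CCAAT, the box bound by NF-Y, in the first 4, and TTTCCCGC, TTTCGCGC, TTTGCCGC and TTTGGCGC, forms of the E2F site, in RBL1. None of these words contains another. CDK1 has a second listed start whose window overlaps the one shown. The windows are CCNB1 at chr5:69166900-69167199 (+), CCNB2 at chr15:59104896-59105195 (+), CDK1 at chr10:60778228-60778527 (+), CCNF at chr16:2429197-2429496 (+) and RBL1 at chr20:37095948-37096247 (-), each printed 5′ to 3′ on the gene's strand.
CCNB1: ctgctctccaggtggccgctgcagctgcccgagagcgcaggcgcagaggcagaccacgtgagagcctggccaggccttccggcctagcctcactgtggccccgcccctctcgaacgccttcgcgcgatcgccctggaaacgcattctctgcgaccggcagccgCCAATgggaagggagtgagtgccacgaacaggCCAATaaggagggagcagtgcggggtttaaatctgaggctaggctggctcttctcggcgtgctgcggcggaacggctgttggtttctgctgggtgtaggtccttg
CCNB2: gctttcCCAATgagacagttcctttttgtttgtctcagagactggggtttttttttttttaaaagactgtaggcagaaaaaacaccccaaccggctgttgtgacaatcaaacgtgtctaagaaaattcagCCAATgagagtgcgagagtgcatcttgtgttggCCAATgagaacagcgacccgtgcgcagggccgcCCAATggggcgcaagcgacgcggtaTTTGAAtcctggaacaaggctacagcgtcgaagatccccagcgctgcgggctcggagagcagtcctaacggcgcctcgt
CDK1: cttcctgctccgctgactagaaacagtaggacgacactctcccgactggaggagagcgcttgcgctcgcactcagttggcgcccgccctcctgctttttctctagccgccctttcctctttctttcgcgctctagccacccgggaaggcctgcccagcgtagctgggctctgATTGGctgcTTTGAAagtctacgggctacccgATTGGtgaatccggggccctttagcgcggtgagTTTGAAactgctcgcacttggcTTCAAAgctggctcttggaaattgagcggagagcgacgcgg
CCNF: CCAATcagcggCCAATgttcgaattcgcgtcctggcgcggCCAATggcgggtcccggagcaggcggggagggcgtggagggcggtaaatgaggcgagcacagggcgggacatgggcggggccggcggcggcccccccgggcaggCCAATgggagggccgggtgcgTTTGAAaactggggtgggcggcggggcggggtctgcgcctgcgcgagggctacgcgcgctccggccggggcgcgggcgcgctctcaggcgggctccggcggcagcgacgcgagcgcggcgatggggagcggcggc
RBL1: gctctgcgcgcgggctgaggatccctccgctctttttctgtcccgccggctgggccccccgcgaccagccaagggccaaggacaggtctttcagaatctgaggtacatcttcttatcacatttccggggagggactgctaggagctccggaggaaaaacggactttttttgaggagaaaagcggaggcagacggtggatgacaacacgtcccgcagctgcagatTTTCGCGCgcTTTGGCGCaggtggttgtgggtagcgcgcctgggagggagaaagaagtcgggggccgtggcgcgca
CCNB2 holds 1 TTTGAA, which starts 29 bases before the start, and 4 CCAAT boxes. CDK1 holds 3 CHR words, 1 of them on the other strand, and 2 CCAAT boxes, both on the other strand. The CDK1 window also holds 1 E2F word, left in lower case because E2F words were marked only in RBL1. RBL1 holds 2 E2F words, which start 26 and 16 bases before the start. Over any listed window, TTTGAA was present in 6 of 33 members, 18.2%, the same share as the 18.2% of all 27305 genes with a promoter. It was in 6 of the 15 members that fell and have a window (40%), in 0 of 8 that rose and in 0 of 10 not called. CCAAT was present in 8 of 15, 3 of 8 and 6 of 10 in the same order, beside 39.7% of all genes, and an E2F word in 4 of 15, 1 of 8 and 2 of 10, beside 3.99%. The heat shock element searched, 3 inverted units of GAA or TTC with 2 free bases between units, was in 0 of 33 windowed members and in 0.608% of all genes. A match shows that these letters are in the window and nothing about binding.

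**Figure D2:**
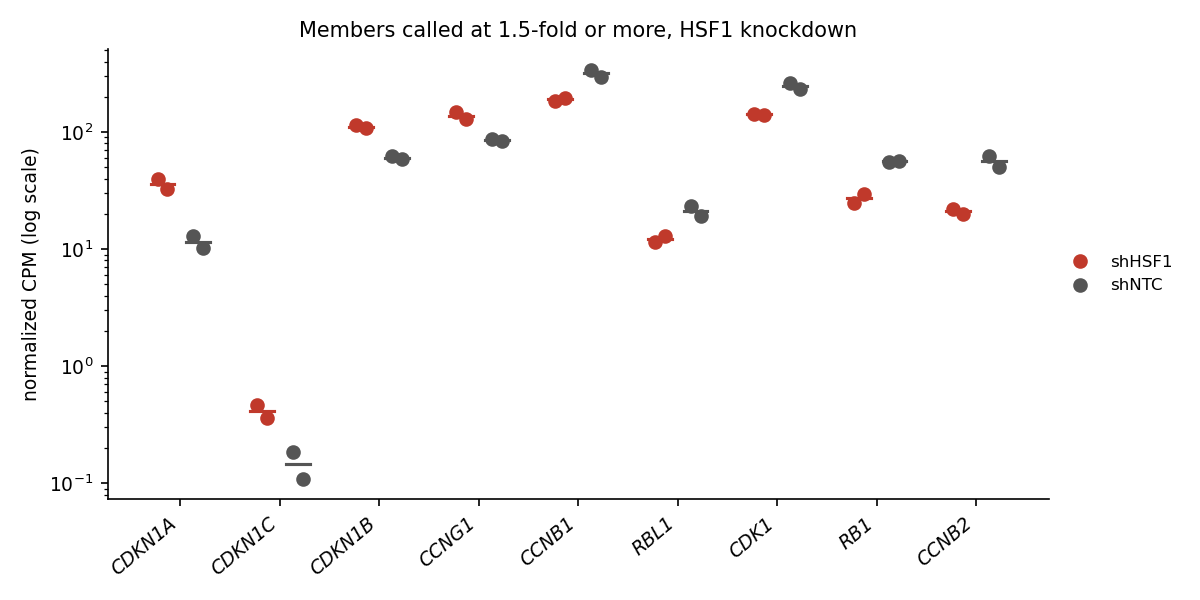
Normalized CPM per library, on a log scale, of the members called with at least 1.5-fold change in shHSF1 against shNTC (points, with the mean as a line). CDKN1C, among them, rests on 18 and 13 counts in shHSF1 and 9 and 4 counts in shNTC. CDKN1A is 39.8 and 32.7 CPM in shHSF1 and 13.0 and 10.2 CPM in shNTC, and CCNB2 lies the other way, at 22.1 and 20.0 CPM in shHSF1 and 62.1 and 50.4 CPM in shNTC.

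Among the CIP/KIP inhibitors, CDKN1A and CDKN1B rose under every setting tried, and the call of CDKN1C depended on the setting. CDKN1A, which encodes p21, an inhibitor induced in growth arrest (ENSG00000124762, chromosome 6, 36644305 to 36655116, + strand), was 39.8 and 32.7 CPM in shHSF1, against 13.0 and 10.2 CPM in shNTC. It was 3.15-fold higher in shHSF1 (log2 1.66 ± 0.14, adjusted p = 1.1e-05, edgeR's quasi-likelihood test). CDKN1B, which encodes p27 (ENSG00000111276, chromosome 12, 12867992 to 12875305, + strand), was 114 and 108 CPM in shHSF1, against 62.6 and 58.6 CPM in shNTC, and was 1.86-fold higher in shHSF1 (log2 0.90 ± 0.07). CDKN1C, which encodes p57 (ENSG00000129757, chromosome 11, 2904443 to 2907111, - strand), had only 18 and 13 counts in shHSF1, against 9 and 4 counts in shNTC. Its call (log2 1.45 ± 0.48, adjusted p = 0.0327) was lost under DESeq2 (adjusted p = 0.246), in the fit of all 8 libraries (0.128) and without any 1 library (0.0759 to 0.212), and it passed the count filter through the shHSF1 libraries. Of the INK4 inhibitors, CDKN2B, which encodes p15, fell to 49.1 and 49.6 CPM in shHSF1, against 62.1 and 64.0 CPM in shNTC (log2 -0.33 ± 0.07, adjusted p = 0.00259). CDKN2A was 51.5 and 66.6 CPM in shHSF1, against 74.9 and 50.2 CPM in shNTC, so the groups overlapped (log2 -0.07 ± 0.26), and its counts pool the p16 and p14ARF transcripts. CDKN2C, which encodes p18, was 3.75 and 3.78 CPM in shHSF1, against 4.71 and 3.27 CPM in shNTC, and CDKN2D, which encodes p19, was 2.57 and 1.93 CPM in shHSF1, against 2.56 and 1.72 CPM in shNTC.

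RB1 and its relatives fell together. RB1, the founding tumour suppressor of the family (ENSG00000139687, chromosome 13, 48877887 to 49056122, + strand), was 24.8 and 29.8 CPM in shHSF1, against 56.0 and 56.7 CPM in shNTC (log2 -1.02 ± 0.09, adjusted p = 1.8e-05, edgeR's quasi-likelihood test). RBL1, which encodes p107 (ENSG00000080839, chromosome 20, 35624752 to 35724398, - strand), was 11.6 and 13.0 CPM in shHSF1, against 23.2 and 19.1 CPM in shNTC (log2 -0.77 ± 0.12, adjusted p = 0.000709). RBL2, which encodes p130, the pocket protein of resting cells, was 73.3 and 61.2 CPM in shHSF1, against 85.5 and 85.7 CPM in shNTC (log2 -0.32 ± 0.09). TFDP1, a DP partner with which E2F factors other than the atypical E2F7 and E2F8 bind DNA, was 138 and 152 CPM in shHSF1, against 205 and 211 CPM in shNTC (log2 -0.49 ± 0.06). The 4 genes were each lower in both shHSF1 libraries than in both shNTC libraries, where 73.2% of all genes had groups apart in either direction. Among activator E2Fs, E2F3 fell by 0.29 ± 0.07 on the log2 scale, while E2F1 was 33.0 and 36.9 CPM in shHSF1, against 35.0 and 39.7 CPM in shNTC, and E2F2 was 12.2 and 14.2 CPM in shHSF1, against 14.3 and 15.6 CPM in shNTC, neither past the threshold (log2 -0.07 ± 0.09 and -0.15 ± 0.11). Among repressor E2Fs, E2F5 (log2 0.40 ± 0.08) and E2F6 (0.48 ± 0.11) rose, E2F4 (-0.23 ± 0.06) and E2F8 (-0.33 ± 0.08) fell, and E2F7 was not called (0.15 ± 0.11). The repressor E2Fs thus moved in both directions.

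Of the cyclins and kinases of the first steps, CCND1, CCNE1, CDK2 and CDK7 were called. Under DESeq2 the calls of CCNE1 (adjusted p = 0.0664) and CDK2 (0.106) were lost. In edgeR CCNE1 also lost its call with robust=FALSE (0.0553) and CDK2 with no count filter (0.103). CCND1, the D-type cyclin most used in epithelial cancers, was 254 and 238 CPM in shHSF1, against 359 and 302 CPM in shNTC (log2 -0.40 ± 0.08, adjusted p = 0.0033, edgeR's quasi-likelihood test). CCND3 was 28.2 and 35.1 CPM in shHSF1, against 31.6 and 35.9 CPM in shNTC (log2 -0.07 ± 0.11), and CCND2 had 0 counts in all 8 libraries, below 0.0529 to 0.0894 CPM, and was not tested. CCNE1 was 36.9 and 44.5 CPM in shHSF1, against 32.3 and 36.1 CPM in shNTC (log2 0.27 ± 0.10, adjusted p = 0.0494), and CCNE2 was 10.9 and 12.4 CPM in shHSF1, against 13.0 and 16.2 CPM in shNTC (log2 -0.30 ± 0.13, adjusted p = 0.0916). Of the kinases, CDK2 was 80.1 and 81.3 CPM in shHSF1, against 72.1 and 73.1 CPM in shNTC (log2 0.18 ± 0.06), and CDK7, part of the CDK-activating kinase, rose by 0.28 ± 0.08 on the log2 scale. CDK4 was 131 and 141 CPM in shHSF1, against 138 and 143 CPM in shNTC (log2 -0.02 ± 0.06), and CDK6 was 71.8 and 72.4 CPM in shHSF1, against 59.8 and 70.3 CPM in shNTC (log2 0.17 ± 0.08, adjusted p = 0.107). The groups were apart for CCND1, CCNE1, CCNE2, CDK2 and CDK6 and overlapped for CCND3 and CDK4. Over all genes, 73.2% had groups apart in either direction. CCNG1, a G-type cyclin (ENSG00000113328, chromosome 5, 162864575 to 162873157, + strand), was 148 and 129 CPM in shHSF1, against 87.8 and 83.5 CPM in shNTC (log2 0.71 ± 0.08, adjusted p = 5.8e-05), while CCNG2 fell by 0.35 ± 0.08. Among the remaining regulators of CDK1, CDC25C fell by 0.33 ± 0.12 and CDC25A and WEE1 rose by 0.37 ± 0.11 and 0.28 ± 0.07 on the log2 scale, while CDC25B (-0.13 ± 0.06) and PKMYT1 (-0.08 ± 0.09) were not called. SKP2, the receptor that targets p27 for destruction, rose by 0.49 ± 0.10. MYBL2, a transcription factor of the MuvB complex, fell by 0.38 ± 0.06, and FOXM1, a factor for mitotic genes, was 218 and 227 CPM in shHSF1, against 234 and 222 CPM in shNTC (log2 -0.01 ± 0.06).

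Other genes of the pathway, were taken from 9 lists that do not include the 43: 26 were higher and 95 lower of 173 tested, with a median log2 fold change of -0.27. That is 69.9% called, beside 45.7% of all genes (22.2% higher and 23.5% lower). Among all genes at 10 CPM or more 57.5% were called (26.9% higher and 30.5% lower). The lists were chosen with earlier results of these data known. Of replication genes with E2F sites, 23 of 24 fell and 0 rose (median -0.57), led in adjusted p by RRM2, a ribonucleotide reductase subunit (log2 -0.93 ± 0.07), MCM5 of the replicative helicase (-1.33 ± 0.10) and TK1, thymidine kinase (-0.71 ± 0.07). Of mitotic targets of the DREAM complex, 21 of 25 fell and 0 rose (median -0.72), led by NUSAP1 (-1.36 ± 0.08) and ASPM (-0.95 ± 0.07), which act on the spindle, and CKAP2 (-1.13 ± 0.09). Of checkpoint genes 11 of 18 fell, with TIMELESS (-0.91 ± 0.06) and CHEK1 (-0.80 ± 0.07) among them, and 2 rose, the phosphatases CDC14A (1.34 ± 0.11) and CDC14B (0.67 ± 0.07). In a list of growth arrest and stress genes 8 rose and 4 fell of 16, the risers led by GADD45A (1.84 ± 0.07), PLK2 (1.78 ± 0.08) and SFN (1.37 ± 0.06), and MDM4 was among those that fell (-0.46 ± 0.09). In the other lists 2 rose and 11 fell of 21 anaphase-promoting complex genes, led by ANAPC4 (-1.05 ± 0.09), 2 rose and 7 fell of 12 SCF genes and partners, led by DTL (-1.18 ± 0.14), 1 rose and 5 fell of 12 MuvB and RB cofactor genes, 5 rose and 6 fell of 30 other cyclins and CDKs, and 7 rose and 7 fell of 16 mitogen inputs. The share called was 36.7% for the other cyclins and CDKs, below that of all genes, and 50% for the MuvB and RB cofactor genes, near it. Both were below the 57.5% of genes at 10 CPM or more, and the 61.9% of anaphase-promoting complex genes was near that share. These counts are adjusted p under 0.05 in edgeR's quasi-likelihood test.

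Of the 29 calls, 14 held under all 12 alternatives and 15 did not, and a fit with all 8 libraries lost those 15. Without shHSF1 replicate 1, CCNG2, CDK2, CDK7, CDKN1C, E2F4 and E2F8 lost their calls (adjusted p 0.0527 to 0.212), and without shHSF1 replicate 2 CCNE1, CDK2, CDKN1C, CDC25A, CDC25C, E2F3, RBL2 and WEE1 did (0.0547 to 0.334). Without shNTC replicate 1, CCNE1, CDK2, CDKN1C, CDC25A, CDC25C, E2F3 and E2F4 lost them (0.0558 to 0.316), and without shNTC replicate 2 CCNE1, CDK2, CDK7, CDKN1C, CDC25A and WEE1 did (0.0574 to 0.191). CCNE2, not called in the main fit, was at log2 -0.45 without shNTC replicate 1, and CDK6, also not called, at 0.29 without shNTC replicate 2. With every library kept, CCNE2 gained a call with no count filter and with a replicate block (adjusted p = 0.042 in each, edgeR's quasi-likelihood test). CDK6 gained 1 with upper-quartile factors (0.0361, same test). With the same factors CDC25C (adjusted p = 0.0811, same test) and E2F4 (0.053) lost their calls.

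PC9-BrM3 against PC9 parental gave fewer calls. Of 41 members tested, 6 were higher and 2 lower in PC9-BrM3, 19.5%, and 33 were not called. Over all 17372 genes tested 7.14% were called, 3.87% higher and 3.27% lower. All 8 changed at least 1.5-fold. Among genes at 10 CPM or more 6.01% were called, beside 7 of 37 members. The median log2 fold change of the members was 0.16, against 0.01 for all genes, and groups did not overlap for 29 of 41 members, beside 59% of all genes. CCND2 and CDKN1C were not tested.

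The 6 genes that rose were a transcription factor, 2 cyclins, 2 atypical E2Fs and an INK4 inhibitor. MYBL2 (ENSG00000101057, chromosome 20, 42295754 to 42345136, + strand) was 132 and 210.4 CPM in PC9-BrM3, against 63.2 and 66.8 CPM in PC9 parental (log2 1.41 ± 0.24, adjusted p = 0.0304, edgeR's quasi-likelihood test). CCNE2, an E-type cyclin of replication start (ENSG00000175305, chromosome 8, 95891998 to 95908906, - strand), was 19.2 and 18.6 CPM in PC9-BrM3, against 8.20 and 6.76 CPM in PC9 parental (log2 1.34 ± 0.20, adjusted p = 0.0191). CCND3, a D-type cyclin (ENSG00000112576, chromosome 6, 41902671 to 42018095, - strand), was 28.9 and 26.2 CPM in PC9-BrM3, against 13.6 and 12.6 CPM in PC9 parental (log2 1.09 ± 0.17, adjusted p = 0.0223). In each the groups were apart, as they were for 59% of all genes. E2F8 (ENSG00000129173, chromosome 11, 19245610 to 19263167, - strand) and E2F7 (ENSG00000165891, chromosome 12, 77415027 to 77459360, - strand), atypical E2Fs that repress E2F targets, were 85.3 and 111 CPM, and 29.02 and 28.1 CPM, in PC9-BrM3, against 42.2 and 42.0 CPM, and 15.1 and 12.3 CPM, in PC9 parental. Their log2 fold changes were 1.23 ± 0.18 (adjusted p = 0.0196) and 1.07 ± 0.18 (0.0291). CDKN2C (ENSG00000123080, chromosome 1, 51426417 to 51440305, + strand) was 6.50 and 6.32 CPM in PC9-BrM3, against 2.32 and 3.08 CPM in PC9 parental (log2 1.26 ± 0.25, adjusted p = 0.0405).

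The 2 genes that fell were CDKN2B and CCNG1. CDKN2B (ENSG00000147883, chromosome 9, 22002902 to 22009362, - strand) was 44.9 and 55.1 CPM in PC9-BrM3, against 120.0 and 124 CPM in PC9 parental (log2 -1.28 ± 0.16, adjusted p = 0.0143, edgeR's quasi-likelihood test). CCNG1 was 90.9 and 81.6 CPM in PC9-BrM3, against 147 and 146 CPM in PC9 parental (log2 -0.75 ± 0.15, adjusted p = 0.0387). Both PC9-BrM3 libraries lay below both parental libraries in each, where 59% of all genes had groups apart in either direction.

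**Figure D3:**
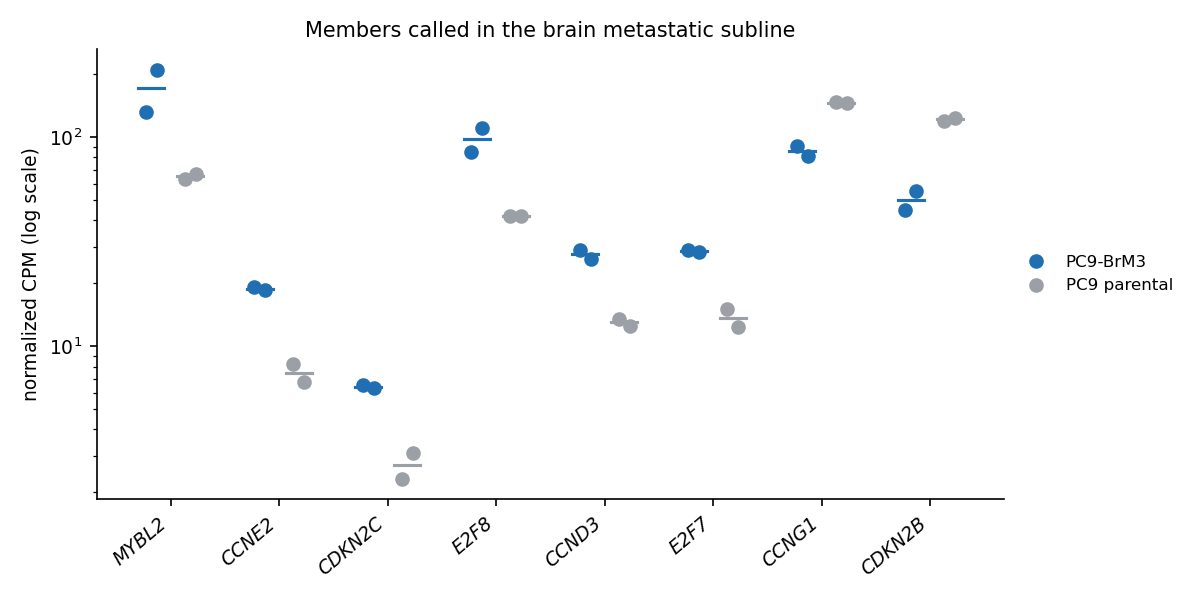
Normalized CPM per library, on a log scale, of the 8 members called in PC9-BrM3 against PC9 parental (points, with the mean as a line). The groups are apart in all 8, beside 59% of all genes. MYBL2 is at 132 and 210.4 CPM in PC9-BrM3 and 63.2 and 66.8 CPM in PC9 parental. CDKN2B is at 44.9 and 55.1 CPM in PC9-BrM3 and 120.0 and 124 CPM in PC9 parental.

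Other members were not called, and some differed between the PC9-BrM3 libraries. CDK4 was 96.8 and 51.7 CPM in PC9-BrM3, against 117 and 120.4 CPM in PC9 parental (log2 -0.66 ± 0.30, adjusted p = 0.237, edgeR's quasi-likelihood test). With no count filter CDK4 was called as lower (log2 -0.68, adjusted p = 0.0461, same test). Its log2 fold change was -1.19 without PC9-BrM3 replicate 1 and -0.30 without replicate 2. CDK6 was 74.7 and 83.4 CPM in PC9-BrM3, against 128 and 121 CPM in PC9 parental (log2 -0.65 ± 0.15, adjusted p = 0.0593). E2F1 was 30.2 and 19.7 CPM in PC9-BrM3, against 13.8 and 11.5 CPM in PC9 parental (log2 0.99 ± 0.26, adjusted p = 0.0826). In all 3 the groups did not overlap, beside 59% of all genes. E2F1 was called as higher under DESeq2 (adjusted p = 0.0112), with no count filter (0.000649), in the fit of all 8 libraries (0.012), with a replicate block (0.0399) and without either PC9-BrM3 library. CDK6 was called as lower under DESeq2 (0.0157), with no count filter (0.00587), in the fit of all 8 libraries (0.00634) and without either PC9-BrM3 library. CCND1 was 310.0 and 314 CPM in PC9-BrM3, against 231 and 233 CPM in PC9 parental (log2 0.44 ± 0.14, adjusted p = 0.12), and RB1 was 64.9 and 82.8 CPM in PC9-BrM3, against 54.9 and 59.0 CPM in PC9 parental (log2 0.38 ± 0.17). CDKN1A was 3.29 and 2.86 CPM in PC9-BrM3, against 3.33 and 3.50 CPM in PC9 parental (log2 -0.14 ± 0.24), and CDKN1B was 55.5 and 54.7 CPM in PC9-BrM3, against 43.04 and 44.0 CPM in PC9 parental (log2 0.35 ± 0.14). FOXM1 was 218.9 and 302.6 CPM in PC9-BrM3, against 181.5 and 179.7 CPM in PC9 parental, and was not called. In the fit of all 8 libraries FOXM1 was called as higher (log2 0.53, adjusted p = 0.0365, edgeR's quasi-likelihood test). Its log2 fold change was 0.75 without PC9-BrM3 replicate 1 and 0.27 without replicate 2. CDK1 (log2 0.05 ± 0.18) and CCNB2 (0.01 ± 0.15) had fold changes near 0. CCNB1 was 366 and 234 CPM in PC9-BrM3, against 287 and 285 CPM in PC9 parental, so its libraries lay on either side of the parental pair (log2 0.08 ± 0.23). Its sign went with the library kept: it was called at -0.28 without PC9-BrM3 replicate 1 (adjusted p = 0.0148) and at 0.35 without replicate 2 (0.00526). CDKN2A was 21.6 and 40.9 CPM in PC9-BrM3, against 36.9 and 39.5 CPM in PC9 parental (log2 -0.29 ± 0.30), and these groups overlapped. CDKN2D was 1.58 and 1.02 CPM in PC9-BrM3, against 0.815 and 0.651 CPM in PC9 parental (log2 0.85 ± 0.36, adjusted p = 0.217). CCNE1 was 25.2 and 28.5 CPM in PC9-BrM3, against 25.5 and 21.9 CPM in PC9 parental (log2 0.19 ± 0.17), and CDK2 was 62.7 and 57.0 CPM in PC9-BrM3, against 52.8 and 48.8 CPM in PC9 parental (log2 0.24 ± 0.15). Of the 9 pathway lists, 2 genes were higher and 2 lower of 175 tested, which was 2.29%, beside 7.14% of all genes. RRM2 was 1 of the higher (log2 0.80 ± 0.16), and the growth arrest and stress list held the other 3, of which 1 was higher and 2 lower.

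Calls in the subline changed with the library left out. Without PC9 parental replicate 1, 0 of 8 members remained called (adjusted p 0.0538 to 0.482), and without replicate 2 only CDKN2B did (the other 7 at 0.0658 to 0.3995), although their log2 fold changes in these fits were 0.92 to 1.47 for the 6 higher genes and -1.32 to -0.77 for the 2 lower ones. By construction, the spread in such a fit comes from the PC9-BrM3 pair alone. Without either PC9-BrM3 library 23 of 42 members were called, with the 8 among them, beside 51.1% of all genes without replicate 1 and 30.8% without replicate 2, where the spread comes from the parental pair alone. Leaving mitochondrial genes out of the counts kept the same 8.

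MYBL2, E2F8, CCNG1 and CDKN2B were called in both comparisons, which share no library. Among genes tested in both, they were 14.3% of the members' knockdown calls and 50% of their subline calls, beside 8.83% and 60.8% over all genes. In the fit of all 8 libraries the knockdown calls of MYBL2 (adjusted p = 0.186), E2F8 (0.115) and CDKN2B (0.0707) were lost. Of the 4, that left CCNG1 called in both. The same fit called CCND1 (log2 0.43), CDKN1B (0.34) and E2F5 (-0.41) in the subline (adjusted p = 0.0276, 0.0418 and 0.034, edgeR's quasi-likelihood test). Their knockdown calls held in it, so they too were called in both there. CDKN1B was higher in both, and CCND1 and E2F5 had opposite signs. MYBL2 and E2F8 were lower in shHSF1 than in shNTC (log2 -0.38 ± 0.06 and -0.33 ± 0.08) and higher in PC9-BrM3 than in PC9 parental (1.41 ± 0.24 and 1.23 ± 0.18). CCNG1 was higher in shHSF1 (0.71 ± 0.08) and lower in PC9-BrM3 (-0.75 ± 0.15), and CDKN2B was lower in both (-0.33 ± 0.07 and -1.28 ± 0.16). So 3 of the 4 had opposite signs and 1 the same. The share of opposite signs over all genes was not computed, so the count is not read as particular to the members. A further 29 members were called in 1 comparison and 10 in neither.

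**Figure D4:**
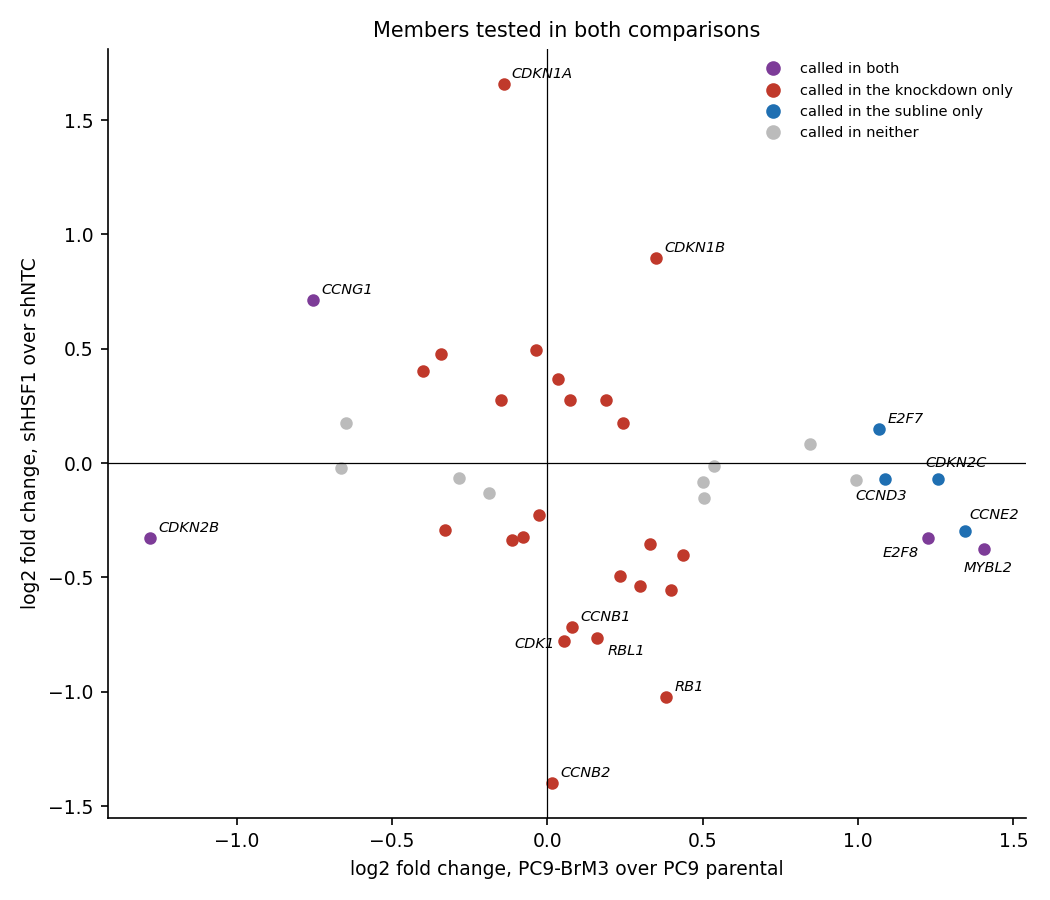
Log2 fold change in PC9-BrM3 over PC9 parental (horizontal) against that in shHSF1 over shNTC (vertical) for genes tested in both, coloured by where they were called. MYBL2, E2F8 and CCNG1 lie in the quadrants of opposite sign, and CDKN2B lies with negative values on both axes.

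Set per length, as CPM per kilobase of exon in the file, the members span a wide range of levels. CCNB1 averaged 74.6 ± 2.85 in shHSF1, 125 ± 12.7 in shNTC, 117 ± 36.5 in PC9-BrM3 and 112 ± 0.498 in PC9 parental (SD, n = 2 each), and had the highest mean of the 43 in each group. Its PC9-BrM3 libraries overlapped those of the other untransduced group. Of the D-type cyclins CCND1 was at 51.0 ± 2.30 in shHSF1, 68.4 ± 8.33 in shNTC, 64.6 ± 0.587 in PC9-BrM3 and 48.0 ± 0.306 in PC9 parental, well above CCND3 at 5.97 ± 0.919, 6.38 ± 0.574, 5.20 ± 0.366 and 2.46 ± 0.130 in the same groups. CDK4 stood above CDK6 in each group, at 42.97 ± 2.12 and 5.88 ± 0.0359 in shHSF1, 44.4 ± 0.951 and 5.31 ± 0.607 in shNTC, 23.4 ± 10.1 and 6.45 ± 0.499 in PC9-BrM3, and 37.4 ± 0.841 and 10.2 ± 0.403 in PC9 parental. In the RB family the order was RBL2, RB1, RBL1 in all groups, at 8.93 ± 1.13, 4.43 ± 0.574 and 2.06 ± 0.159 in shHSF1 and 11.4 ± 0.0138, 9.13 ± 0.0833 and 3.55 ± 0.492 in shNTC.

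**Figure D5:**
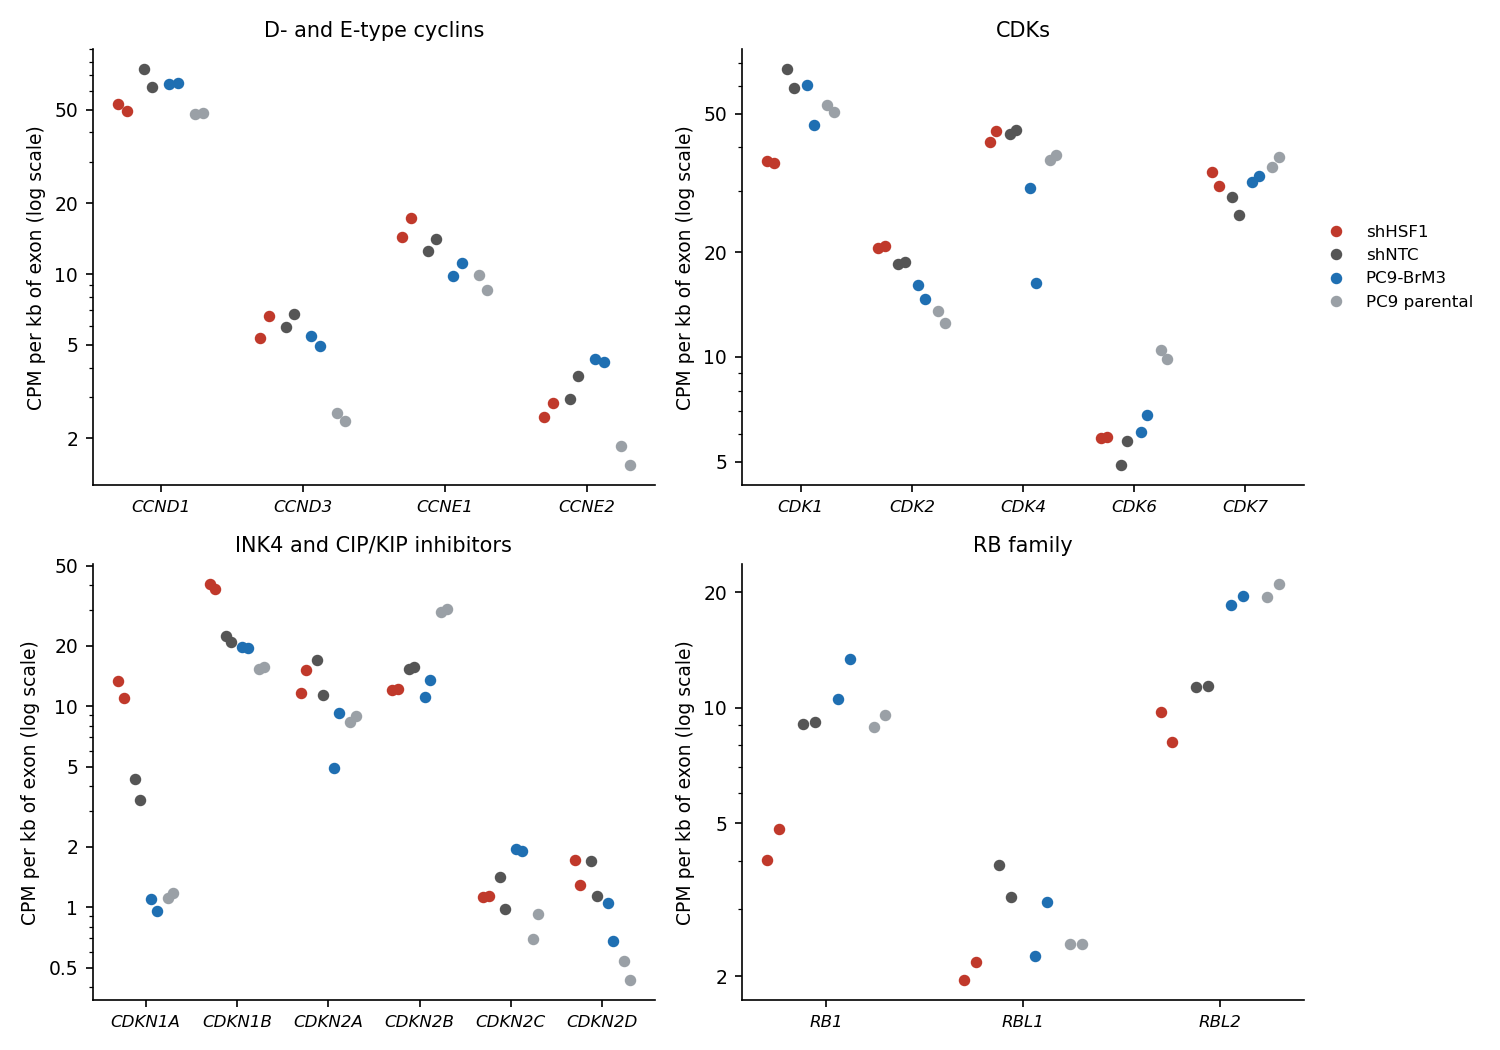
Level in CPM per kilobase of exon, on a log scale, of D- and E-type cyclins, CDKs, CDK inhibitors and the RB family in the 4 groups (points are libraries). CDKN1A is at 12.1 ± 1.68 in shHSF1, 3.89 ± 0.652 in shNTC, 1.03 ± 0.102 in PC9-BrM3 and 1.14 ± 0.0411 in PC9 parental (SD, n = 2 each).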

How the data were processed

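Raw read counts per gene were deposited by the authors, who counted with featureCounts 1.6.1 as reverse-stranded over Ensembl GRCh37 exons, per the file headers. The submitters' processing notes also list Trim Galore, HISAT2 and DESeq2. Counting by strand separates genes that overlap on opposite strands. Symbols were found for 52181 of 63677 gene IDs.

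The 4 libraries of a comparison were fitted alone with edgeR 4.0.16 under R 4.3.3, using filterByExpr, TMM factors, robust quasi-likelihood F tests and Benjamini-Hochberg adjustment over all genes tested, with a threshold of 0.05. Standard errors are the log2 fold change divided by the square root of F. CPM levels use 1 set of TMM factors over all 8 libraries. DESeq2 1.42.0 and limma 3.58.1 were also loaded, DESeq2 as an alternative. Both libraries of each group differed beyond counting noise (chi-square per degree of freedom 301 in PC9-BrM3, 25.1 in PC9 parental, 10.9 in shHSF1 and 24.2 in shNTC), and all 8 were kept as separate.

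The test was tried on simulated counts. The model of their dispersion was changed 2 times after results were seen, and the version kept still called more unchanged genes than the nominal rate. It recovered few 1.5- and 2-fold changes in the subline comparison. The members and lists were chosen with earlier results of these data known. All 43 members are described. Values per library are given for members called with at least 1.5-fold change, the D- and E-type cyclins, CDK1, CDK2, CDK4, CDK6 and the inhibitors. Of each pathway list up to 3 genes per direction with the smallest adjusted p could be named, and other values per library were chosen after they were seen. Some listed pathway genes are not reported here by name. Promoter windows are RefSeq's on GRCh38.p14 and were searched for 4 motifs. MYBL2 and E2F7 were first to be shown and were replaced by CCNF after matches were seen. Alternatives were other scaling factors, DESeq2, no count filter, robust=FALSE, all 8 libraries in 1 fit, a replicate block, mitochondrial genes left out and each library left out.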

Additional observations from a re-analysis of the deposited data

How the results depend on the processing

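In the knockdown, counts of called members, listed pathway genes and all genes stayed within 1.5 times of the values reported under other scaling factors, DESeq2, no count filter, robust=FALSE, the replicate block and without mitochondrial genes. The fit of all 8 libraries gave 14 members (5 higher, 9 lower), 15 higher and 55 lower pathway genes and 3873 genes in all. Leaving out 1 library gave 21 to 24 members (7 to 9 higher, 14 to 17 lower), 19 to 26 higher and 82 to 88 lower pathway genes and 6044 to 6514 genes. Upper-quartile factors moved the median of all genes to 0.07 and of the members to -0.01, and the split of all calls to 4592 higher and 3387 lower, against 3739 and 3962 with TMM. In the subline, DESeq2 gave 11 higher pathway genes and 2120 genes in all. With no count filter there were 4 lower members, 16 higher and 4 lower pathway genes and 3159 genes. The fit of all 8 libraries gave 14 members (10 higher, 4 lower), 23 higher and 6 lower pathway genes and 3813 genes. Leaving out 1 library gave 0 to 23 members (0 to 17 higher, 0 to 9 lower), 0 to 64 higher and 0 to 32 lower pathway genes and 402 to 9228 genes; a lone library is assumed to vary like the other group's pair. CCNB1, not called in the subline, was called at -0.28 without PC9-BrM3 replicate 1 and at 0.35 without replicate 2 (adjusted p = 0.0148 and 0.00526, edgeR). The cause of these changes was not tested. Same-numbered libraries did not deviate together (correlation -0.001 in the knockdown and 0.009 in the subline), so the numbers were not taken as pairs. With a replicate block, the knockdown gave 30 members (12 higher, 18 lower) and 8015 genes, and the subline 8 members with 1 lower, as CCNG1 moved to an adjusted p of 0.0537 and E2F1 gained a call at 0.0399, and 1328 genes. All 1240 genes called in the subline changed at least 1.5-fold, so smaller changes were not called there.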

Other observations

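Transduced and untransduced PC9-BrM3 cells differed in some of these genes, although no comparison of the design sets them side by side and lane, transduction, selection and doxycycline cannot be told apart. PKMYT1 was 45.0 and 38.1 CPM in shNTC, against 4.04 and 3.55 CPM in PC9-BrM3, a ratio of means of 10.95. CDKN1A was 13.0 and 10.2 CPM in shNTC, against 3.29 and 2.86 CPM in PC9-BrM3, a ratio of 3.78, so its level in shHSF1 stood on a control that was itself above the untransduced cells. HSF1 was 178 and 184 CPM in shNTC, against 54.6 and 52.7 CPM in PC9-BrM3. RBL2 lay the other way, at 85.5 and 85.7 CPM in shNTC, against 139.7 and 147 CPM in PC9-BrM3. Across 42 members the GC content of their transcripts and the log2 ratio of shNTC to PC9-BrM3 had a Spearman correlation of 0.62, a description added after the values were seen, in which all points share the same 4 libraries and lanes. Its part in these differences was not tested.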
